A study of Mus musculus with 17 samples.

Results

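Corticosteroid signalling in the kidney was described through 8 genes among the 22561 of the deposited table: the receptors Nr3c1 and Nr3c2, the dehydrogenases Hsd11b1 and Hsd11b2, and the target genes Fkbp5, Tsc22d3, Sgk1 and Zbtb16. They were chosen by gene symbol from their known roles, with earlier results of these data known. All 8 had a row and passed the filter on low counts in each comparison. RNA of whole kidneys was sequenced from 17 male mice, 1 library per mouse. The Ctrl group held 5 C57BL/6 mice given saline. The Case group held 6 mice of strain BKS.Cg-Dock7m +/+ Leprdb/J, called db/db, which lack functional leptin receptor signalling and become obese and diabetic, also given saline. The Dapa group held 6 db/db mice given 1 mg/kg of dapagliflozin daily, which blocks SGLT2, the sodium-glucose transporter of the proximal tubule. Dosing by oral gavage began at 8 weeks of age and ran for 6 weeks in all groups. The Ctrl mice were not littermates of the db/db mice, so the strain background and the db/db genotype cannot be told apart in any comparison with Ctrl. There was no group of C57BL/6 mice with dapagliflozin.

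Glucocorticoids such as corticosterone bind the glucocorticoid receptor, encoded by Nr3c1, and with high affinity also the mineralocorticoid receptor, encoded by Nr3c2, through which aldosterone drives sodium reabsorption in the distal nephron and collecting duct. HSD11B2 inactivates corticosterone in these segments and so leaves the mineralocorticoid receptor to aldosterone, whereas HSD11B1 regenerates active corticosterone from its inactive form. Ligand-bound receptors enter the nucleus and bind palindromic response elements, and Fkbp5, Tsc22d3 (also called Gilz), Sgk1 and Zbtb16 are commonly used as readouts of this binding.

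The promoter windows of Sgk1, Tsc22d3 and Fkbp5 are shown because Sgk1 varied among the mice with each of the others, as described further on. They come from RefSeq (GRCm38.p6), hold 250 bases before and 50 after a transcript start, and are printed from 5′ to 3′ on the strand of the gene. Capitals mark the half-sites of the receptor element, AGAACA and its reverse complement TGTTCT. Of the several windows of Sgk1 and of Tsc22d3, the one with the most half-sites is shown. The first window lies at chr10:21993640-21993939 on the plus strand, the second at chrX:140600473-140600772 and the third at chr17:28486100-28486399, both on the minus strand.
Sgk1: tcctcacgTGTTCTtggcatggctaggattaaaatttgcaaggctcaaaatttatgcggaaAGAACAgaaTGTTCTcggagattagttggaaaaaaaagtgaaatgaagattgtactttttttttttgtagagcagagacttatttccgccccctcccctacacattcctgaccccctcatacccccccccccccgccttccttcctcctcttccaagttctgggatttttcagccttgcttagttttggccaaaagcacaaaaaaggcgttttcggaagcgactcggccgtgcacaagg
Tsc22d3: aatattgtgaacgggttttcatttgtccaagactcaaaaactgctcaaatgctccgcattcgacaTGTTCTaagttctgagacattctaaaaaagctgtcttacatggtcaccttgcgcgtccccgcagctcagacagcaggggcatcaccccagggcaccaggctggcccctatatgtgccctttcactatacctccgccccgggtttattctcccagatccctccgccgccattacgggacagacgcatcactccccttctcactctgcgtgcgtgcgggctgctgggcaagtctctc
Fkbp5: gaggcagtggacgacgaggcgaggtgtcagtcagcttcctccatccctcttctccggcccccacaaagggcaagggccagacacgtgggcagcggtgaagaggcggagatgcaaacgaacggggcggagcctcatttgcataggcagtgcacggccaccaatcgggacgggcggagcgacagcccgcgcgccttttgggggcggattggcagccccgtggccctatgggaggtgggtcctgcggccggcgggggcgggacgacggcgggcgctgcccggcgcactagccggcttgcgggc
The Sgk1 window holds a complete palindrome, AGAACA and TGTTCT with 3 bases between, which starts 189 bases before the transcript start, at chr10:21993701-21993715. Of 32817 mouse promoter windows of this length, 3 hold the complete palindrome (0.00914%). The half-site, searched on both strands and with half-sites of the palindrome included, occurs in 19.0% of windows. It is in 4 of the 12 windows of the 5 genes examined, in 3 of the 6 Sgk1 windows and 1 of the 3 Tsc22d3 windows. The Sgk1 window shown is the only one of its 6 with the palindrome. The Tsc22d3 window shown is the only one of its 3 with a half-site. The windows of Nr3c2, Hsd11b1 and Fkbp5 hold none of these letters. A match describes the sequence and is no evidence of binding in these kidneys.

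In the mm10 coordinates of the deposited table, Nr3c2 spans 8:76899442-77245012 and Hsd11b2 8:105518746-105523984, Hsd11b1 spans 1:193221634-193264075, Fkbp5 17:28399095-28517524, Tsc22d3 X:140539528-140600659, Sgk1 10:21882184-21999903 and Zbtb16 9:48654311-48835945. All are protein-coding genes of the GENCODE M21 annotation, Nr3c2, Hsd11b2 and Sgk1 on the plus strand and the others on the minus strand. Nr3c2 shares 247 exonic bases with Gm10649 on the opposite strand, whose median count was 0. No other member shares an exon with another annotated gene. At most 0.456% of the 50-base stretches of any member's transcripts also occur in a transcript of another gene, so reads of near-identical copies had little room to enter these counts.

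Each library held 13039535 to 17779635 counts, with 17.9% to 20.4% on mitochondrial genes in Ctrl, 19.8% to 27.3% in Case and 19.7% to 27.6% in Dapa. The median total was 16403995 in Ctrl, 15826612 in Case and 14514719 in Dapa. Nr3c2 had 156 to 523 counts per library, and Zbtb16 had 67 in Ctrl 1 and up to 1210 in other mice. Adipocyte markers summed to 17.7 FPKM in Ctrl 3, 6.34 in Dapa 7 and 5.58 in Dapa 11, and to at most 1.40 in each of the other 14 libraries. In 7 libraries (Ctrl 1, 3 and 4, Case 1, Dapa 10, 11 and 12) the FPKM of 3 other genes, entered over 2 lines, did not match their counts. Counts of Slc5a2, which encodes the drug target SGLT2, were 2255 to 8067. Lepr was counted in all groups (50 to 626), which does not test the genotype, since a gene-level count covers all Lepr isoforms. The kidney label was met by proximal tubule markers, which summed to 1404 to 2616 FPKM.

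Levels are given as FPKM, fragments scaled to transcript length and library size, and so may be compared between genes. Hsd11b2 had the highest level in each group, with means of 49.3 ± 4.82 (SD, n = 5) in Ctrl, 60.8 ± 10.7 (n = 6) in Case and 62.3 ± 4.98 (n = 6) in Dapa, and its range did not overlap that of the next gene in any group. Nr3c2 had the lowest mean, 1.05 ± 0.194 in Ctrl, 1.04 ± 0.241 in Case and 1.71 ± 0.521 in Dapa. In Case and Dapa its range lay below that of every other member except for Zbtb16 in Dapa, while in Ctrl it overlapped that of Zbtb16. The 6 genes between these ends followed each other with overlapping ranges. In Ctrl their order by mean was Hsd11b1, Sgk1, Fkbp5, Tsc22d3, Nr3c1 and Zbtb16, and in Case and in Dapa Fkbp5 and Sgk1 led.

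**Figure D1:**
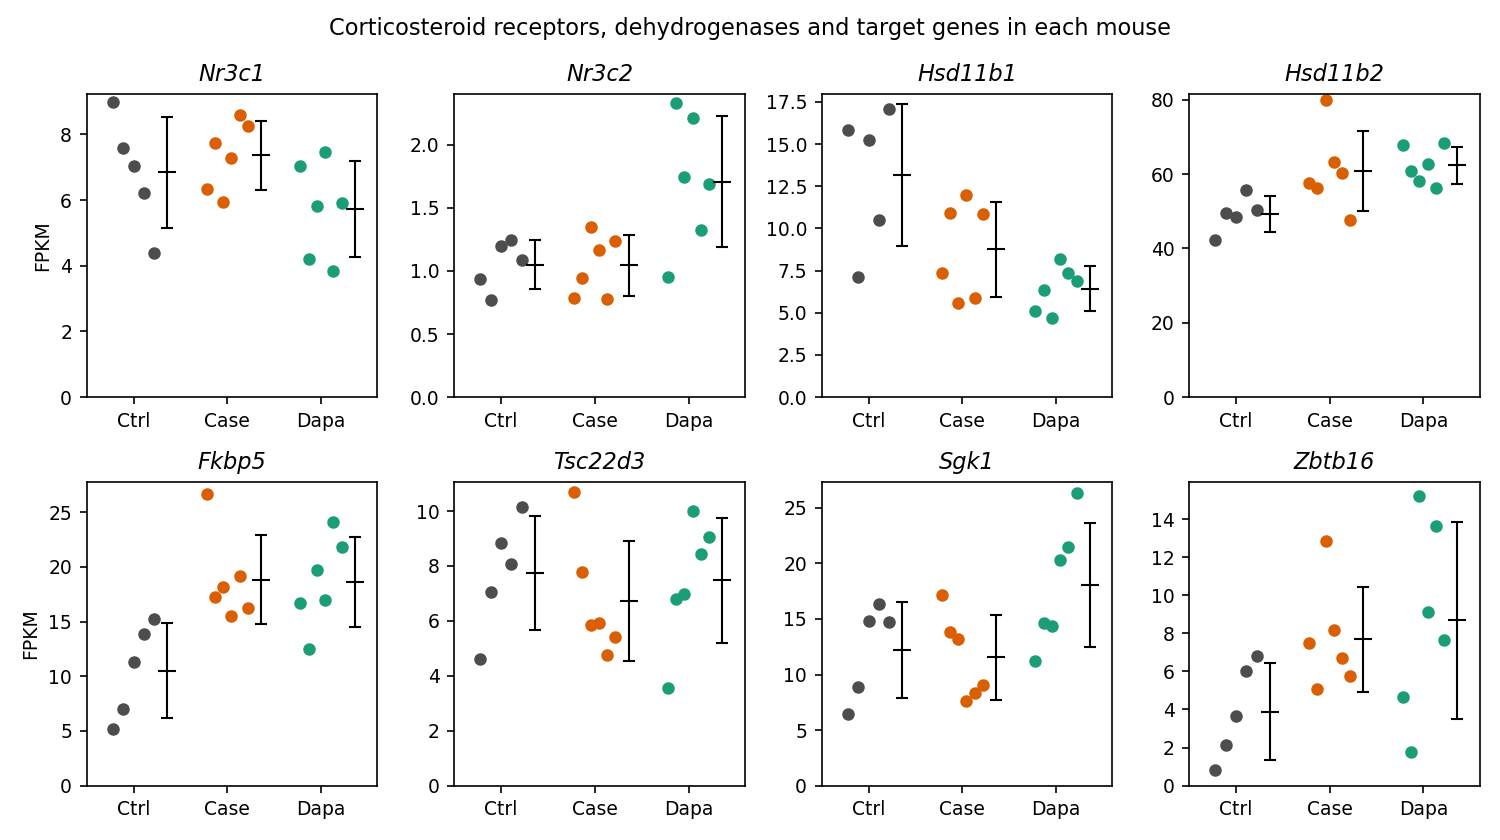
FPKM of the 8 genes (y axes, linear, from 0) in each of the 5 Ctrl, 6 Case and 6 Dapa mice, 1 point per mouse, with the mean and SD as a bar at the right of each group. All 6 Case points of Fkbp5 lie above the 5 Ctrl points, and the Hsd11b1 points of Dapa reach no higher than 8.19 while 4 of the 5 Ctrl points lie above that.

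Differences between groups were tested with edgeR on the counts of all genes, and q is the Benjamini-Hochberg adjusted p-value over all genes tested. The test called a gene when q was under 0.05, and a differentially expressed gene (DEG) in the sense of the study also had group means of FPKM that differed by a fold above 2. In Case against Ctrl, 0 of the 8 members were called by edgeR, beside 13% of the 14582 genes tested. DESeq2 called 1 (Fkbp5), beside 2688 of the 14582 genes. An unadjusted p under 0.05 was found for 4 of the 8 (Hsd11b1, Hsd11b2, Fkbp5 and Zbtb16), beside 28.7% of all genes. Between Dapa and Case, edgeR called 0 of the 8, beside 0% of 14573 genes. DESeq2 also called 0 of the 8, beside 202 of the 14573 genes. At an unadjusted p under 0.05 there were 4 of the 8 (Nr3c1, Nr3c2, Hsd11b1 and Sgk1), beside 12.9% of all genes. The FPKM of none of the 8 were without overlap between Dapa and Case, beside 0.48% of all genes. In Dapa against Ctrl, 4 of the 8 were called, beside 29.1% of 14647 genes, with 3 higher and 1 lower in Dapa. Among them Hsd11b1 alone also passed the fold of 2. The count of 4 fell to 1 without Ctrl 1, Ctrl 2, Ctrl 3, Dapa 10 or Dapa 12 and to 2 without Ctrl 5 or Dapa 9. Over all genes the 4260 calls also fell, to between 3227 and 4073 in these fits. The comparisons share mice, so their results are not independent of one another. In whole-kidney RNA, fewer cells of a type and less RNA per cell cannot be told apart.

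**Figure D2:**
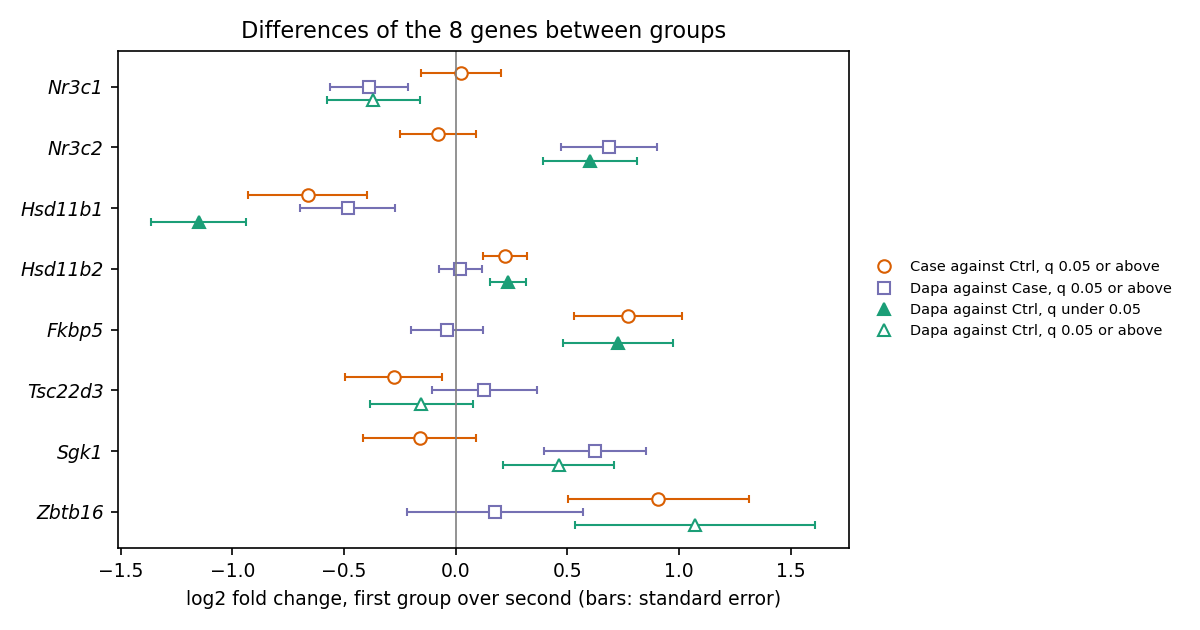
Fitted log2 fold change (x axis) of each of the 8 genes (y axis) in the 3 comparisons, with the standard error as bars, filled where q was under 0.05. The 4 filled points belong to Dapa against Ctrl, with Hsd11b1 at -1.15 and Nr3c2, Hsd11b2 and Fkbp5 between 0.23 and 0.73.

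Nr3c2 rose in treated db/db mice compared with Ctrl, and Nr3c1 passed the test in no comparison. Neither gene passed the adjusted test between treated and untreated db/db mice. Nr3c1, the glucocorticoid receptor, measured 8.98, 7.58, 7.02, 6.22 and 4.40 FPKM in the Ctrl mice, 5.95 to 8.59 (median 7.50) in Case and 3.85 to 7.48 (median 5.86) in Dapa. The 3 groups overlapped, with 4 of the 6 Dapa mice below every Case mouse. Its log2 fold change was 0.02 ± 0.178 (SE) in Case against Ctrl (edgeR q = 0.948), -0.39 ± 0.174 in Dapa against Case (q = 0.375) and -0.37 ± 0.209 in Dapa against Ctrl (q = 0.201), the last of which was -0.22 without Ctrl 1.

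Nr3c2, the mineralocorticoid receptor, measured 0.936, 0.773, 1.20, 1.25 and 1.09 FPKM in the Ctrl mice, 0.782 to 1.35 (median 1.06) in Case and 0.954 to 2.33 (median 1.71) in Dapa. Of the 6 Dapa mice, 5 lay above every Ctrl mouse and 4 above every Case mouse. Dapa 7 was the exception to the first, and Dapa 7 and Dapa 11 were the exceptions to the second. Nr3c2 rose in Dapa against Ctrl, with a log2 fold change of 0.60 ± 0.211 (edgeR q = 0.0465). Against Case the value was 0.69 ± 0.215 (edgeR q = 0.250), and in Case against Ctrl it was -0.08 ± 0.171 (q = 0.802). The call against Ctrl rested on a thin margin, since edgeR gave it without Dapa 7 (q = 0.00672) or Dapa 11 (q = 0.0390) but not when any other single mouse was left out, with q from 0.0518 without Ctrl 4 to 0.105 without Ctrl 2. Within the 7 libraries with mismatched entries the difference of mean log2 CPM was 0.47 (3 Dapa and 3 Ctrl), and within the other 10 it was 0.69 (3 and 2). On the log2(FPKM + 1) scale, which understates changes of low genes, the differences were 0.39 in Dapa against Ctrl and in Dapa against Case.

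The ratio of Nr3c1 to Nr3c2 FPKM, a description with no test, lay between 4.05 and 9.81 in Ctrl around a median of 5.88. The Case mice lay between 4.41 and 11.0 (median 7.37) and the Dapa mice between 1.81 and 7.38 (median 3.36). Apart from Dapa 7, which had the highest ratio, the Dapa mice lay between 1.81 and 3.503 and so below all Ctrl and Case mice.

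The 11-beta dehydrogenases differed in direction: in treated db/db mice compared with Ctrl, the activating Hsd11b1 fell and the inactivating Hsd11b2 rose slightly. Hsd11b1 measured 15.9, 7.14, 15.2, 10.5 and 17.1 FPKM in the Ctrl mice, 5.59 to 12.0 (median 9.11) in Case and 4.67 to 8.19 (median 6.60) in Dapa. Ctrl 2 was the lowest Ctrl mouse and lay among the db/db mice, while the other 4 Ctrl mice lay above every Dapa mouse. Hsd11b1 fell by 1.15 on the log2 scale in Dapa against Ctrl (SE 0.212, edgeR q = 0.00222), a ratio of 0.488 between the group means of FPKM. The call held in each of the 11 fits that left out 1 mouse (q up to 0.00783) and in each of the 11 other settings tried (q up to 0.0214). Within the 7 libraries with mismatched entries the difference of mean log2 CPM was -1.004, and within the other 10 it was -1.14. The log2 fold change was -0.66 ± 0.265 in Case against Ctrl (edgeR q = 0.118) and -0.48 ± 0.213 in Dapa against Case (q = 0.366). In Dapa against Case the within-set differences were -0.03 in the 7 libraries and -0.69 in the other 10. In Case against Ctrl they were -0.98 and -0.44, and Case 1 was the one Case mouse of the 7 libraries. Proximal tubule markers were also lower against Ctrl. Of the 8 markers, 5 were called lower in Dapa against Ctrl (beside 14.9% of all genes) and 3 in Case against Ctrl (beside 6.91%). Their summed FPKM was 2204 to 2616 in Ctrl, 1404 to 2523 in Case and 1541 to 2167 in Dapa. In Dapa against Case 4 of the 8 lay above 0 and 4 below, with a median log2 fold change of 0.01. Taken as deviations from the group mean on the log2 scale, Hsd11b1 and the summed markers gave r = 0.24 over the 17 mice. The part of the markers in the Hsd11b1 result was not tested.

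Hsd11b2 measured 42.3, 49.5, 48.5, 55.8 and 50.4 FPKM in the Ctrl mice, 47.6 to 79.8 (median 58.9) in Case and 56.1 to 68.4 (median 61.7) in Dapa. The Dapa mice all lay above the Ctrl mice, in a comparison where the FPKM of 14.5% of all genes tested did not overlap. Of the 6 Case mice, 5 lay above every Ctrl mouse and Case 6 was the exception. Hsd11b2 rose in Dapa against Ctrl by a log2 fold change of 0.23 ± 0.0789 (edgeR q = 0.0402), and measured 0.22 ± 0.0991 in Case against Ctrl (q = 0.163) and 0.02 ± 0.0966 in Dapa against Case (q = 0.946). The Case value rested in part on Case 3, without which it was 0.14. The call in Dapa against Ctrl was lost without Ctrl 1 (edgeR q = 0.0817), Ctrl 2 (0.0617), Ctrl 3 (0.0653), Ctrl 5 (0.0738), Dapa 7 (0.0534), Dapa 10 (0.0707) or Dapa 12 (0.0577). It was also lost with all 3 groups in one fit (edgeR q = 0.0741), without a filter (0.0608) and without the 3 libraries with adipocyte transcripts (0.0725). The within-set differences were 0.23 in both sets of libraries. The collecting duct principal cell markers, a list of which Hsd11b2 is itself a member, summed to 121 to 162 FPKM in Ctrl and 170 to 364 in Dapa, with 3 of the 6 called higher in Dapa against Ctrl, beside 14.2% of all genes, and their part was not tested.

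The ratio of Hsd11b1 to Hsd11b2 FPKM lay between 0.144 and 0.375 in Ctrl around a median of 0.314. The Case mice lay between 0.0701 and 0.229 (median 0.158) and the Dapa mice between 0.0756 and 0.131 (median 0.102). Every Dapa mouse lay below every Ctrl mouse in this ratio, which was not tested.

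Of the target genes, Fkbp5 rose in treated db/db mice compared with Ctrl and narrowly missed the threshold in untreated ones, and the others did not pass the adjusted test in any comparison. Fkbp5, a co-chaperone that lowers the affinity of the glucocorticoid receptor for its hormone and is induced by it, measured 5.18, 7.04, 11.3, 13.9 and 15.2 FPKM in the Ctrl mice, 15.5 to 26.7 (median 17.7) in Case and 12.5 to 24.1 (median 18.3) in Dapa. Every Case mouse had more Fkbp5 than any Ctrl mouse, an absence of overlap that 8.43% of genes tested shared, although Case 4 at 15.5 and Ctrl 5 at 15.2 nearly met. Its log2 fold change in Case against Ctrl was 0.77 ± 0.242 and missed the threshold (edgeR q = 0.0527). It was called by 7 of the 12 other settings, among them DESeq2 (q = 0.0127), all 3 groups in one fit (q = 0.0348) and upper quartile scaling (q = 0.0420), and also without Ctrl 4 (q = 0.0464) or Ctrl 5 (q = 0.0414). Within the 7 libraries the difference of mean log2 CPM was 1.43, with Case 1 as the one Case mouse, and within the other 10 it was 0.65.

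Fkbp5 rose in Dapa against Ctrl, by 0.73 ± 0.244 on the log2 scale (edgeR q = 0.0401), with 5 of the 6 Dapa mice above every Ctrl mouse and Dapa 8 the exception. Against Case it was -0.04 ± 0.162 (q = 0.938). The call against Ctrl was lost without Ctrl 1 (edgeR q = 0.0708), Ctrl 2 (0.0921), Ctrl 3 (0.0610), Dapa 9 (0.0618), Dapa 10 (0.0583), Dapa 11 (0.0812) or Dapa 12 (0.0651), and without the 3 libraries with adipocyte transcripts (q = 0.125, 4 mice against 4), a setting chosen after seeing the data. Within the 7 libraries the difference of mean log2 CPM was 1.02, and within the other 10 it was 0.55.

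Zbtb16, a transcriptional repressor that glucocorticoids induce in many cell types, measured 0.809, 2.15, 3.67, 6.01 and 6.81 FPKM in the Ctrl mice, 5.06 to 12.8 (median 7.12) in Case and 1.74 to 15.2 (median 8.39) in Dapa. Ctrl 1 and Dapa 8 were the lowest of their groups, 3 of the 6 Case mice and 4 of the 6 Dapa mice lay above every Ctrl mouse, and the groups overlapped. Its log2 fold changes were 0.91 ± 0.407 in Case against Ctrl (edgeR q = 0.161), 1.07 ± 0.539 in Dapa against Ctrl (q = 0.152) and 0.17 ± 0.394 in Dapa against Case (q = 0.880). In Dapa against Ctrl the difference of mean log2 CPM was 1.77 within the 7 libraries and 0.29 within the other 10.

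Sgk1, a kinase that raises sodium channel activity and is induced by both receptors, measured 6.42, 8.86, 14.8, 16.3 and 14.8 FPKM in the Ctrl mice, 7.59 to 17.2 (median 11.2) in Case and 11.2 to 26.3 (median 17.5) in Dapa. The 3 groups overlapped, with 3 of the 6 Dapa mice above every Case and every Ctrl mouse. Its log2 fold change was 0.63 ± 0.228 in Dapa against Case (edgeR q = 0.286), 0.46 ± 0.248 in Dapa against Ctrl (q = 0.180) and -0.16 ± 0.253 in Case against Ctrl (q = 0.721). The last value was -0.32 without Case 1 and -0.05 without Ctrl 4. In Dapa against Ctrl the within-set differences of mean log2 CPM were 0.83 in the 7 libraries and 0.13 in the other 10. In Dapa against Case they were 0.34 and 0.39, and the fitted value with a term for the 7 libraries was 0.37.

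Tsc22d3, an anti-inflammatory leucine zipper protein, measured 4.62, 7.06, 8.83, 8.07 and 10.2 FPKM in the Ctrl mice, 4.74 to 10.7 (median 5.88) in Case and 3.56 to 10.0 (median 7.71) in Dapa. The groups overlapped widely. The log2 fold changes were -0.28 ± 0.217 in Case against Ctrl (edgeR q = 0.430), 0.13 ± 0.237 in Dapa against Case (q = 0.849) and -0.15 ± 0.232 in Dapa against Ctrl (q = 0.651). The value in Case against Ctrl was -0.47 without Case 1 and -0.18 without Ctrl 5. In Dapa against Case it was 0.02 without Dapa 10 and 0.32 without Case 1. The within-set differences of mean log2 CPM in Dapa against Ctrl were of opposite sign, 0.27 in the 7 libraries and -0.70 in the other 10. In Case against Ctrl they were 0.55 in the 7 libraries, with Case 1 the one Case mouse, and -0.61 in the other 10.

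Besides the differences between groups, single mice were high or low in several of them at once. For this comparison each mouse's log2 CPM was taken as its deviation from the mean of its own group, CPM being counts scaled to library size, and all 28 pairs of members were examined over the 17 mice. Of the 28 pairs, 3 passed a permutation test within groups after adjustment over the 28 for Pearson's r. Tsc22d3 and Sgk1 gave r = 0.84 (permutation p = 6.0e-05, adjusted 0.00168) and rho = 0.84 (permutation p = 5.0e-05, adjusted 0.00140). Fkbp5 and Zbtb16 gave r = 0.80 (permutation p = 0.00115, adjusted 0.0161) and rho = 0.70 (permutation p = 0.00717, adjusted 0.0502). Fkbp5 and Sgk1 gave r = 0.76 (permutation p = 0.00177, adjusted 0.0165) and rho = 0.81 (permutation p = 0.000860, adjusted 0.0120). By rho Fkbp5 and Tsc22d3 also passed, with rho = 0.68 (permutation p = 0.00416, adjusted 0.0388), while their r was 0.59 (permutation p = 0.0117, adjusted 0.0816), and Fkbp5 and Zbtb16 narrowly did not.

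These relations loosened without the mice at the ends. Without the 2 mice farthest from the median of the first gene, r was 0.81 for Tsc22d3 and Sgk1, 0.68 for Fkbp5 and Zbtb16 and 0.69 for Fkbp5 and Sgk1. Without any single mouse it stayed between 0.80 and 0.87, 0.70 and 0.85, and 0.67 and 0.79 in the same order. Within the 12 db/db mice alone, Tsc22d3 and Sgk1 kept r = 0.84 (permutation p = 0.000570, adjusted 0.0160, with an adjusted 0.0507 for rho), while Fkbp5 and Zbtb16 gave r = 0.63 (permutation p = 0.0428, adjusted 0.438) and Fkbp5 and Sgk1 gave 0.61 (permutation p = 0.0469, adjusted 0.438). The number of pairs passing was 1 without Ctrl 1 or Ctrl 2, 2 without Ctrl 4 or Case 1, 4 without Dapa 7 and 6 without Dapa 8. Among the Dapa mice, the 3 of the libraries with mismatched entries had a higher mean log2 CPM than the other 3 for Sgk1 (7.80 and 7.07), Tsc22d3 (6.15 and 5.45), Zbtb16 (5.598 and 4.65) and Fkbp5 (7.80 and 7.46). Among the Ctrl mice this was not so, with the 3 of that set below the other 2 for Tsc22d3 (5.88 and 6.15), Zbtb16 (3.82 and 4.35) and Fkbp5 (6.78 and 6.91) and at 6.97 and 6.93 for Sgk1. With deviations taken within group and within each set of libraries, which leaves 16 mice since Case 1 stood alone, r was 0.75 for Tsc22d3 and Sgk1, 0.84 for Fkbp5 and Zbtb16 and 0.71 for Fkbp5 and Sgk1. In that setting, chosen after seeing the data and with fewer permutations possible, 0 of the 28 pairs passed the adjusted permutation test (adjusted 0.124, 0.124 and 0.282 for these). The 3 pairs with an unadjusted p under 0.05 there were Tsc22d3 and Sgk1, Fkbp5 and Zbtb16, and Nr3c2 and Tsc22d3 (r = 0.70, permutation p = 0.0147, adjusted 0.137). Ctrl 1 had the lowest Fkbp5, Sgk1, Tsc22d3 and Zbtb16 levels of its group, and Dapa 7 the lowest Sgk1 and Tsc22d3 levels of its group.

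**Figure D3:**
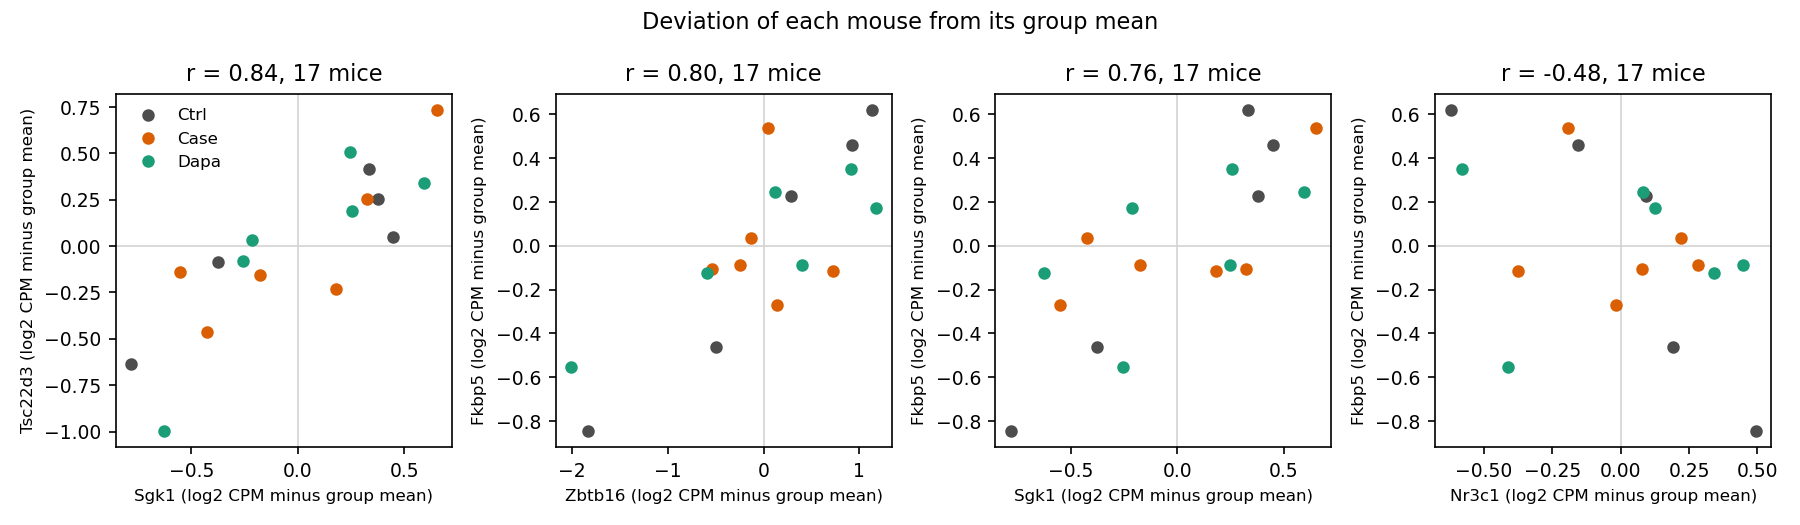
Each point is 1 of the 17 mice, coloured by group, with the deviation of its log2 CPM from its group mean for one gene on each axis. Tsc22d3 against Sgk1 (r = 0.84), Fkbp5 against Zbtb16 (r = 0.80) and Fkbp5 against Sgk1 (r = 0.76) rise together, and Fkbp5 against Nr3c1 (r = -0.48) is shown as a pair that did not pass.

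No pair with a receptor or a dehydrogenase passed over the 17 mice. The values of Nr3c1 with the targets were negative over the 17 mice, with r = -0.48 for Fkbp5 (permutation p = 0.0949, adjusted 0.321, rho = -0.43, permutation p = 0.127) and r = -0.46 for Sgk1 (permutation p = 0.0906, adjusted 0.321, rho = -0.50, permutation p = 0.0605). Within the 12 db/db mice alone r was -0.09 for Fkbp5 and -0.28 for Sgk1. The values of Nr3c1 depended on single mice: without Dapa 8, r was -0.70 for Fkbp5 (permutation, adjusted 0.0302) and -0.74 for Zbtb16 (permutation, adjusted 0.0311), which then passed, and without Ctrl 1 they were -0.32 and -0.18. As a description with no test, the Sgk1 deviations went with the summed markers of the thick ascending limb (r = 0.72 over the 17 mice) and against those of the proximal tubule (r = -0.68), which come from the same libraries. The deviations of Sgk1 (r = -0.50), Tsc22d3 (r = -0.48) and Fkbp5 (r = -0.40) went against the log2 total count. The part of these values in the shared variation of the targets was not tested.

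Among 11424 genes with a mean FPKM of at least 1, the genes most like each member in these deviations over the 17 mice were named, as a description. Sgk1 was followed by Map3k6 (r = 0.89), itself one of the listed glucocorticoid targets, then Scnn1a (r = 0.88), the alpha subunit of the epithelial sodium channel, and Bdp1 (r = 0.88). Fkbp5 was followed by Ccp110 (r = 0.84), Phrf1 (r = 0.82) and Map3k6 (r = 0.81), so Map3k6 was near both. Tsc22d3 was followed by Taf1a (r = 0.90), Hnrnpc (r = 0.87) and Gadd45g (r = 0.85), and Zbtb16 by genes that included Gon4l (r = 0.88) and Wdr47 (r = 0.80). For Hsd11b1 they were Get4 (r = 0.92), Stub1 (r = 0.84) and Hist1h1c (r = 0.80), and for Hsd11b2 Tmem132a (r = 0.87), Smarcc2 (r = 0.86) and Tnfrsf1a (r = 0.85). For Nr3c1 they were Med11 (r = 0.86), Mtap (r = 0.85) and Cnep1r1 (r = 0.83), and for Nr3c2 Comtd1 (r = 0.81), Cep152 (r = 0.77) and Mpdz (r = 0.76).

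A wider list of 28 glucocorticoid targets gave a mixed picture, in which metallothioneins and a few others rose and most genes did not pass. Of the 27 tested, 5 were called higher and 0 lower in Case against Ctrl, beside 6.09% of all genes higher, and the list's median log2 fold change was 0.38 beside 0.03 for all genes. Lcn2, a secreted iron carrier that is also a marker of tubular injury, rose by 4.60 ± 1.00 on the log2 scale (edgeR q = 0.0123), from 0.0521 to 0.367 FPKM in Ctrl to 0.352 to 15.4 in Case. The metal-binding Mt2 (1.33 ± 0.293, q = 0.0127) and Mt1 (1.21 ± 0.234, q = 0.00641), the cell cycle inhibitor Cdkn1c (0.90 ± 0.177, q = 0.00688) and Anxa1 (0.63 ± 0.162, q = 0.0239) also rose by edgeR. These genes respond to other signals as well as to glucocorticoids. By sign, 18 of the 27 lay above 0 and 9 below in Case against Ctrl. Below 0 but not called by edgeR were, among others, Errfi1 (-0.61 ± 0.193, q = 0.0557), Klf9 (-0.51 ± 0.174, q = 0.0727) and Klf15 (-0.42 ± 0.163, q = 0.106). With dapagliflozin 8 were called higher than in Ctrl, beside 14.2% of all genes, and 1 lower (Glul), with a median of 0.41 beside 0.02. Between Dapa and Case 0 of the 27 were called by edgeR, with 4 at an unadjusted p under 0.05, beside 12.9% of all genes. Per1, a clock gene and direct receptor target singled out after its values were seen, rose in Dapa against Ctrl (0.87 ± 0.259, q = 0.0245) by edgeR and measured 1.08 ± 0.248 in Dapa against Case (q = 0.179).

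The 23 genes of aldosterone-regulated transport included 17 with a positive fold change against Ctrl, both without and with dapagliflozin. In Case against Ctrl 4 were called higher, beside 6.09% of all genes, and 0 lower, with a median of 0.19 beside 0.03 for all genes. They were Scnn1a (0.86 ± 0.220, edgeR q = 0.0238) and Scnn1b (0.39 ± 0.0998, q = 0.0230), subunits of the epithelial sodium channel, the kinase gene Stk39 (0.62 ± 0.172, q = 0.0326) and the potassium channel gene Kcnj10 (0.52 ± 0.0888, q = 0.00347). Scnn1a measured 3.31 to 9.44 FPKM in Ctrl and 9.53 to 16.6 in Case, without overlap. The count fell to 1 without Ctrl 3, and to 2 without Ctrl 1 or Ctrl 5. Over all genes the calls also fell, from 1895 to 1002, 1160 and 1125 in the same order of mice. With dapagliflozin 11 of the 23 were called higher than in Ctrl, beside 14.2% of all genes, and 1 lower, with a median of 0.29 beside 0.02, and by edgeR Scnn1a (1.29 ± 0.222, q = 0.00151), Kcnj10 (0.79 ± 0.0965, q = 0.000289), Stk39 (0.88 ± 0.174, q = 0.00321) and Scnn1b (0.68 ± 0.101, q = 0.000688) were again among those higher. The one lower was Prss8, a protease that activates the channel, which fell by 1.22 on the log2 scale (SE 0.252, edgeR q = 0.00402). Between Dapa and Case 0 were called by edgeR, with 8 of the 23 at an unadjusted p under 0.05, beside 12.9% of all genes. Markers of the segments that hold these genes also moved. In Case against Ctrl 2 of the 6 distal convoluted tubule markers, 1 of the 6 principal cell markers and 3 of the 6 intercalated cell markers were called higher. Against Ctrl the Dapa mice had 4 of the 6 distal convoluted tubule markers called higher and 1 lower, and 3 of the 6 principal cell and 5 of the 6 intercalated cell markers higher. The transport list shares Slc12a3, Klhl3, Fxyd4, Scnn1g and Slc26a4 with these marker lists, and the part of the markers was not tested.

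**Figure D4:**
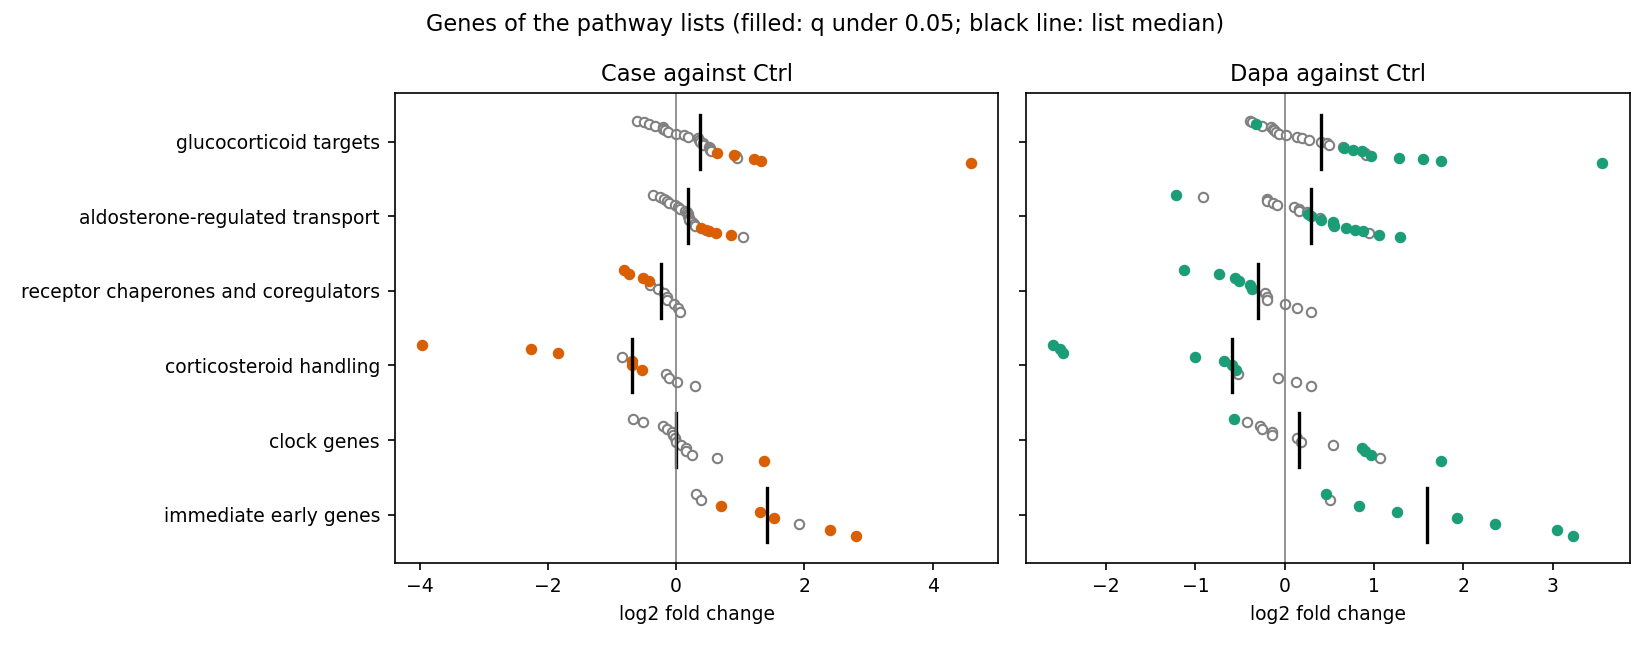
Log2 fold change (x axis) of each tested gene of the 4 pathway lists, the clock genes and the immediate early genes (rows), with Case against Ctrl at the left and Dapa against Ctrl at the right, filled where q was under 0.05, and the list median as a black line. The chaperone and steroid handling lists lie mostly below 0 and the immediate early genes wholly above 0 in both panels.

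Several of the chaperones that hold the receptors in a hormone-binding state were lower in db/db kidneys. Of 12 chaperone and coregulator genes, 0 were called higher and 4 lower in Case against Ctrl, beside 6.91% of all genes lower, with a median of -0.24. They were Hspa8 (-0.82 ± 0.175, edgeR q = 0.0109), Hsp90aa1 (-0.74 ± 0.160, q = 0.0116), Hsp90ab1 (-0.52 ± 0.0811, q = 0.00200) and Fkbp4 (-0.42 ± 0.0738, q = 0.00395), the co-chaperone that Fkbp5 competes with. Fkbp4 measured 49.0 ± 3.82 FPKM (SD, n = 5) in Ctrl and 38.7 ± 1.14 (n = 6) in Case, without overlap. Against Ctrl the Dapa mice had 6 of the 12 called lower, beside 14.9% of all genes, and 0 higher. These chaperones serve many clients besides the receptors.

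Several steroid reductase genes and Por were also lower. The list of corticosteroid handling held 12 genes, among them steroid reductases, transporters, a carrier, and Por and H6pd, which supply electrons or reducing power to steroid-converting enzymes. Of the 11 tested, 6 were called lower in Case against Ctrl, beside 6.91% of all genes, and 0 higher, with a median of -0.69. With dapagliflozin 7 were called lower than in Ctrl, beside 14.9% of all genes. The transporter genes Abcb1a (0.02 ± 0.182, edgeR q = 0.966) and Abcb1b (0.30 ± 0.261, q = 0.487) did not pass in Case against Ctrl, and the carrier gene Serpina6 was not tested. The steroid reductase genes Akr1c14 (-2.27 ± 0.232, edgeR q = 0.000219), Akr1c18 (-3.96 ± 0.912, q = 0.0154), Srd5a2 (-1.84 ± 0.371, q = 0.00821) and Srd5a1 (-0.69 ± 0.181, q = 0.0265) were called lower. Akr1c14 measured 39.3 to 78.3 FPKM in Ctrl, 10.3 to 20.2 in Case and 6.07 to 17.9 in Dapa. Akr1c18 rested on few reads, 1 to 126 counts per mouse in Ctrl and 0 to 20 in Case. Several of these enzymes also act on androgens. The count of 6 fell to 3 without Ctrl 1, Ctrl 2, Ctrl 3 or Ctrl 5, each left out alone. The calls over all genes fell from 1895 to 1160, 1150, 1002 and 1125 in the same order. Proximal tubule markers were lower beside these genes, with the values given for Hsd11b1, and their part was not tested.

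The hour at which the kidneys were taken is not given in the sources used here, and corticosteroid targets follow the daily rise of corticosterone. Of 14 clock genes 1, Cry1, was called in Case against Ctrl (1.37 ± 0.259, edgeR q = 0.00585), beside 13% of all genes called in either direction, with 0.777 to 1.88 FPKM in Ctrl and 2.57 to 6.61 in Case. The count was 2 without Ctrl 3, Case 3, Case 4 or Case 5. Against Ctrl the Dapa mice had Per1, Arntl, Cry1 and Cry2 called higher and Nr1d1 lower, 5 of the 14 beside 29.1% of all genes, and the count was 3 without Ctrl 1 or Ctrl 2. Immediate early genes, which respond quickly to stress and handling, were measured beside them. Of these, 5 of the 8 were called higher in Case against Ctrl, beside 6.09% of all genes, among them by edgeR Fos (2.80 ± 0.712, q = 0.0235), Egr1 (2.40 ± 0.577, q = 0.0182), Nr4a1 (1.52 ± 0.465, q = 0.0486) and Junb (1.31 ± 0.264, q = 0.00821), and 7 of the 8 in Dapa against Ctrl, beside 14.2% of all genes. The count in Case against Ctrl fell to 1 without Ctrl 3, to 2 without Ctrl 5 and to 3 without Ctrl 1, Ctrl 2, Ctrl 4, Case 3, Case 4 or Case 5, and to 1 with a term for the 7 libraries. Over all genes the 1895 calls became 1002 without Ctrl 3, 1125 without Ctrl 5 and 1219 with that term. They became 1160, 1150, 1911, 1698, 1581 and 2154 in the fits that gave 3, in the same order. The part of the hour and of handling in the levels of Fkbp5 and the other targets was not tested.

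Adrenal tissue lies close to the kidney. Of the adrenal markers, 6 had a row, and they summed to 0.173 to 0.996 FPKM in Ctrl, 1.07 to 2.45 in Case and 0.828 to 7.81 in Dapa. Hsd3b1 measured 0.0222 to 7.10 FPKM in the Dapa mice. Star was at or below 0.858 FPKM in every mouse, and Nr5a1 was at 0 counts in every Dapa mouse. The part of adrenal tissue in these values was not tested. Of the macrophage markers 0 of 6 were called in Case against Ctrl, beside 13% of all genes, and 0 of 6 in Dapa against Ctrl, beside 29.1%. They summed to 17.2 to 37.0 FPKM apart from 92.7 in Case 3, which also had the highest Hsd11b2 and Zbtb16 levels of its group.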

How the data were processed

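RNA of whole kidneys from 17 mice was sequenced. HISAT2 (genome mm10) and Stringtie were used by the authors, who deposited a read count and an FPKM per gene. The deposited FPKM equals the count over length and library total to within 0.00178%, so it holds no TMM factor. The libraries were strand-specific, but the strand setting of the counting is not given in the sources used here. Of 22561 genes, 3 entered over 2 lines (Sirt1, Tgfb1 and Bmp4) were left out.

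Each comparison was fitted on its own 2 groups with edgeR (version 4.0.16, R 4.3.3): filterByExpr, TMM, quasi-likelihood, then Benjamini-Hochberg adjustment over all genes tested. Log2 CPM used a prior count of 1. Correlations used 100000 two-sided permutations within groups. The lowest chi-square per gene between 2 libraries of a group was 15.0, so no library was a duplicate.

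The members and lists were chosen with earlier results of these data known. Named genes were the 8 members, at most 4 called genes of largest change per list in Case against Ctrl, and the 3 most like each member, of which 1 is not reported here. Anxa1, Glul, Errfi1, Klf9, Klf15, Per1, Prss8, Arntl, Cry2, Nr1d1, Abcb1a, Abcb1b, Serpina6, Por, H6pd and the markers were named after their values were seen. Alternatives were DESeq2 1.42.0, limma 3.58.1 on log2(FPKM + 1) or log2(FPKM + 0.1), voom, other scalings and filters, all 3 groups in one fit, a term for the 7 libraries, a replicate block, and each mouse left out. The tests were checked on simulated data.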

Additional observations from a re-analysis of the deposited data

Results flagged for a closer look

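In 30 sets of values (the FPKM of 8 genes and 2 ratios, in 3 groups), the highest or lowest mouse was set against the others by Dixon's ratio of its gap to the whole range. Chance alone singles out about 1 in 20 sets, and 2 of the 30 were singled out. Fkbp5 in Case 1 measured 26.7 FPKM, above 15.5 to 19.2 in the other 5 Case mice. Case 1 was the only Case library among the 7 with mismatched entries, and it also had the highest Sgk1 and Tsc22d3 levels of its group. The ratio of Nr3c1 to Nr3c2 FPKM in Dapa 7 was 7.38, above 1.81 to 3.503 in the other 5 Dapa mice. Dapa 7 was one of the 3 libraries with adipocyte transcripts and had the lowest Nr3c2, Sgk1 and Tsc22d3 levels of its group. The cause of either value was not tested.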

How the results depend on the processing

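In Case against Ctrl the number of members called, 0, became 1 (Fkbp5) under DESeq2, all 3 groups in one fit, at least 10 counts in every sample, limma on log2(FPKM + 1) or log2(FPKM + 0.1), upper quartile scaling and voom with sample quality weights, and was 0 to 1 when each mouse was left out. In Dapa against Case it was 0 in every setting. In Dapa against Ctrl the 4 became 3 with all 3 groups in one fit, 2 without a filter, 2 without the 3 libraries with adipocyte transcripts (chosen after seeing the data), 1 with the fold above 2, and 1 to 3 when each mouse was left out. The glucocorticoid targets called in Case against Ctrl, 5, became 3 with the fold above 2 and 4 to 7 when each mouse was left out. The 4 genes of aldosterone-regulated transport became 0 with the fold above 2, 1 without the libraries with adipocyte transcripts, and 1 to 6 when each mouse was left out. The 3 correlated pairs became 1 within the db/db mice alone, 0 with deviations within group and library set (chosen after seeing the data) and 1 to 6 when each mouse was left out. Without the libraries with adipocyte transcripts, 3 genes of corticosteroid handling and 1 immediate early gene were called in Case against Ctrl, in place of 6 and 5. The immediate early genes also fell to 3 without a filter, 2 with voom or limma and 1 with the term for the 7 libraries. The 1 clock gene became 3 under DESeq2 or voom and 2 under 6 other settings, and the 5 clock genes of Dapa against Ctrl became 3 with all 3 groups in one fit. Over all genes, leaving out each mouse gave 1002 to 2154 calls in Case against Ctrl, in place of 1895. In Dapa against Ctrl it gave 3227 to 4690, in place of 4260. Without the libraries with adipocyte transcripts there were 1002 calls in Case against Ctrl and 2984 in Dapa against Ctrl. The causes of the changes in these counts were not tested.

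Replicate numbers 1 to 5 are shared by Ctrl and Case, but same-numbered mice did not deviate together (r from -0.065 to -0.042 over genes, and 0 of 5 Ctrl mice were most like their own number), so the numbers do not pair the mice. With the replicate block, 0 members, 4 glucocorticoid targets, 1 gene of aldosterone-regulated transport, 2 of corticosteroid handling and 0 immediate early genes were called. Over all genes, 707 of 14582 were called with the block, beside 1895 without it.

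Of 1481 fold changes under other settings, of the 8 members in each comparison and of the 21 called list genes against Ctrl, 1352 kept their direction and side of the threshold, 103 kept their direction but lost the call, 9 gained it, and 17 changed direction, as follows. Nr3c1 in Case against Ctrl turned to -0.0090 with the replicate block and ranged from -0.12 to 0.16 when each mouse was left out. In Dapa against Case, Tsc22d3 turned to -0.10 with the term for the 7 libraries and Zbtb16 to -0.058 and -0.014 with limma on log2(FPKM + 0.1) and log2(FPKM + 1), while leaving out each mouse gave -0.023 to 0.096 for Hsd11b2, -0.11 to 0.092 for Fkbp5 and -0.090 to 0.39 for Zbtb16. In Dapa against Ctrl, Tsc22d3 turned to 0.063 without the libraries with adipocyte transcripts and was -0.27 to 6.54e-05 when each mouse was left out. With limma on log2(FPKM + 0.1), which changes the test, the scale and the normalization together, the share of called genes that were higher went from 46.9% to 62.4% in Case against Ctrl and from 48.7% to 68.2% in Dapa against Ctrl, and the median of all genes shifted by at most 0.0988 on the log2 scale.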
